A study of Oryza sativa with 14 samples.

Results

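The genes described here are those of a rice RNA-seq table whose symbol or description names an enzyme or product of carotenoid synthesis, carotenoid cleavage or the plastid precursor pathway. They number 36 of the 38978 genes in the table. Genes were tested where 3 or more of the 6 libraries held at least 0.5 RPKM (reads per kilobase of gene, scaled to the size of the library), which 30 of the 36 did. The 6 others all belong to the cleavage and hormone branch. The wording leaves out some known enzymes of the route, among them OsHDS and OsHDR, whose descriptions use other terms.

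Carotenoids are made in plastids from the 5-carbon units of the methylerythritol phosphate pathway. Phytoene synthase joins prenyl chains into colourless phytoene, desaturases and isomerases turn it into red lycopene, and cyclases then split the route into a branch with an epsilon ring, which ends in lutein, and a branch with beta rings only, which ends in the xanthophylls zeaxanthin, violaxanthin and neoxanthin. In leaves these pigments bind to the photosystems and their antennae, collect light and discard excess excitation. Cleavage of carotenoids also starts the synthesis of abscisic acid and of strigolactones, hormones of drought response and of shoot branching.

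The libraries come from rice seedlings (Oryza sativa), 3 from osnat10 and 3 from wild type (WT), whose genotype is given as Kitaake. The name osnat10 refers to N-acetyltransferase 10, which the study's title ties to N4-acetylcytidine in RNA and to photosynthesis. All plants grew hydroponically in Yoshida solution on short days (10 h light, 14 h dark). The sources used here state neither the osnat10 allele, its parent variety and number of lines, nor the age of the seedlings, the hour of harvest or any pooling. No gene of the table is named for NAT10, so its own level was not checked. The comparison asks whether transcripts of the pigment route differ between osnat10 and WT.

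The libraries held between 13688629 and 15583776 reads over genes. WT replicate 1 stood apart from the other WT libraries before any pathway gene is considered. The 18 light-harvesting genes summed to 3626 to 4089 RPKM in osnat10 libraries, and to 11949, 808.9 and 534.2 RPKM in WT replicates 1, 2 and 3. Rubisco small subunit genes, of which 6 are annotated, summed to 5437 to 7632 RPKM in osnat10 and to 16049, 8481 and 4615 RPKM in WT replicates 1, 2 and 3. The 4 root markers (RCc2, RCc3, LSI1 and LSI2) summed to 854.7 to 989.0 RPKM in osnat10 libraries and to 407.3 to 742.6 RPKM in WT libraries, without overlap. RCc3 made up most of that sum in osnat10, with 534.2 to 667.3 RPKM there and 107.2 to 319.6 RPKM in WT, and RCc2 did not overlap either. LSI1, at 145.2 to 186.0 RPKM in osnat10 and 169.1 to 291.1 RPKM in WT, and LSI2, at 85.1 to 123.9 RPKM in osnat10 and 96.5 to 181.2 RPKM in WT, overlapped and leaned the other way. Leaf and root transcripts were thus present in every library. Of the light-harvesting genes 4, of the Rubisco genes 1 and of the root markers 0 were at 0 in every library. In seedling samples a smaller share of green cells and less RNA of a gene per cell cannot be told apart, and the part of such shifts in the results below was not tested.

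In limma, 0 of the 30 tested members were called at an adjusted p under 0.05 (Benjamini-Hochberg over all 24380 tested genes), where 37 genes in all, or 0.152%, were called. Those were 30 higher (0.123%) and 7 lower (0.0287%) in osnat10, while median of ratios scaling called 51 higher and 57 lower, and quantile normalisation 28 higher and 24 lower, again with 0 members. At an unadjusted p under 0.05 there were 4 members with lower levels in osnat10 and 0 with higher levels. Over all tested genes the shares at that unadjusted p were 5.69% lower and 13.6% higher, or 19.2% together. The 4 members are OsLCYe (lycopene epsilon-cyclase), RVDE1 (violaxanthin de-epoxidase), Os03g0841900, annotated as similar to a carotenoid isomerase, and the low-level precursor gene OsDXS. In the authors' deposited table, 4 of the 32 members with an adjusted p-value were under 0.05, against 6.2% of the 27104 genes with one. Its 3 lower ones are OsLCYe, Os03g0841900 and OsDXS, and its higher one is OsNCED2, a cleavage gene too low for the limma test.

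Of the 30 tested members, 14 had a positive and 16 a negative log2 fold change in limma. Their median was -0.07, beside 0.11 over all tested genes, both as osnat10 over WT on the log2(RPKM + 0.5) scale. In 5 members every osnat10 library lay below every WT library, and in 0 members every osnat10 library lay above. Over all tested genes those shares were 7.79% and 17.2%. The remaining 25 members overlapped between genotypes. Scaling bears on these counts, because the medians of all genes lay at 0.01 under median of ratios scaling and at -0.03 after quantile normalisation. The members' medians under these scalings were -0.18 and -0.17, with 19 and 20 of 30 negative.

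**Figure D1:**
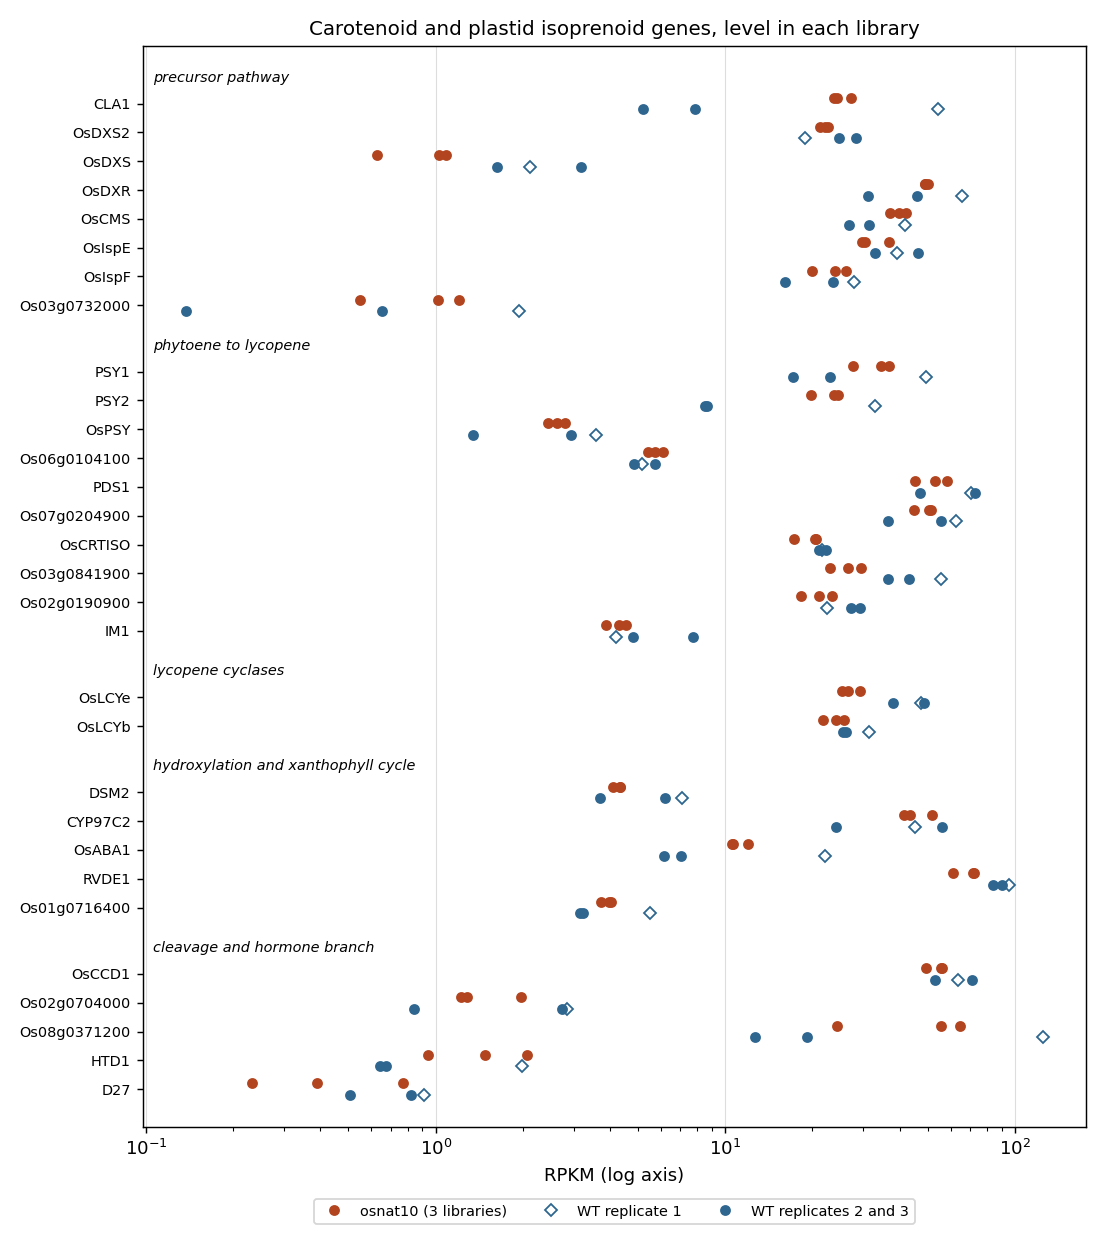
Level of each of the 30 tested genes in RPKM on a log axis, grouped by step of the pathway, with 1 point per library. The 3 osnat10 libraries lie close together for most genes, while WT replicate 1 (open diamonds) lies apart from WT replicates 2 and 3 for CLA1, PSY1, PSY2, OsABA1 and Os08g0371200.

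The precursor pathway starts with 1-deoxyxylulose 5-phosphate synthase (DXS), which controls much of the flux into plastid isoprenoids. Rice has 3 such genes in the table. CLA1 stood at 23.7, 27.3 and 24.3 RPKM in osnat10 replicates 1 to 3, against 54.3, 5.19 and 7.83 RPKM in WT replicates 1 to 3. All osnat10 libraries thus lay between WT replicate 1 and the other WT libraries, and WT spanned a 10.5-fold range where osnat10 spanned 1.15-fold. The log2 fold change of CLA1 was 0.89 (95% interval -0.83 to 2.61, limma adjusted p = 0.55). Without WT replicate 1 it was 1.89, with a limma adjusted p of 0.0047, a comparison with the 2 low WT libraries alone, and over all 14 alternatives the limma adjusted p ran from 0.0047 to 0.90.

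OsDXS2 ran the other way within WT. It stood at 22.7, 21.3 and 22.1 RPKM in osnat10 and at 18.8, 28.4 and 24.8 RPKM in WT, lowest in WT replicate 1, with a log2 fold change of -0.10 (limma adjusted p = 0.80). The third gene, OsDXS, annotated as a type 2 synthase precursor, was low everywhere, at 1.08, 0.625 and 1.03 RPKM in osnat10 against 2.12, 1.63 and 3.16 RPKM in WT. Its libraries did not overlap, and the values rest on 144 reads in osnat10 and 379 reads in WT over 3 libraries each. The log2 fold change of OsDXS was -0.97 (SE 0.30, limma adjusted p = 0.15), and -1.45 with an adjusted p of 0.0090 in the authors' deposited table.

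The summed level of the 3 DXS genes averaged 48.0 ± 0.957 RPKM in osnat10 and 48.7 ± 23.0 RPKM in WT (SD, n = 3 each). The make-up of that sum varied among WT libraries. CLA1 supplied 49.9%, 55.5% and 51.2% of the sum in osnat10, against 72.2%, 14.8% and 21.9% in WT. OsDXS2 supplied 43.2% to 47.8% in osnat10 and 25.0%, 80.6% and 69.2% in WT replicates 1, 2 and 3. The osnat10 libraries were therefore near an even mix of the 2 genes, and the WT libraries lay on either side of it.

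**Figure D2:**
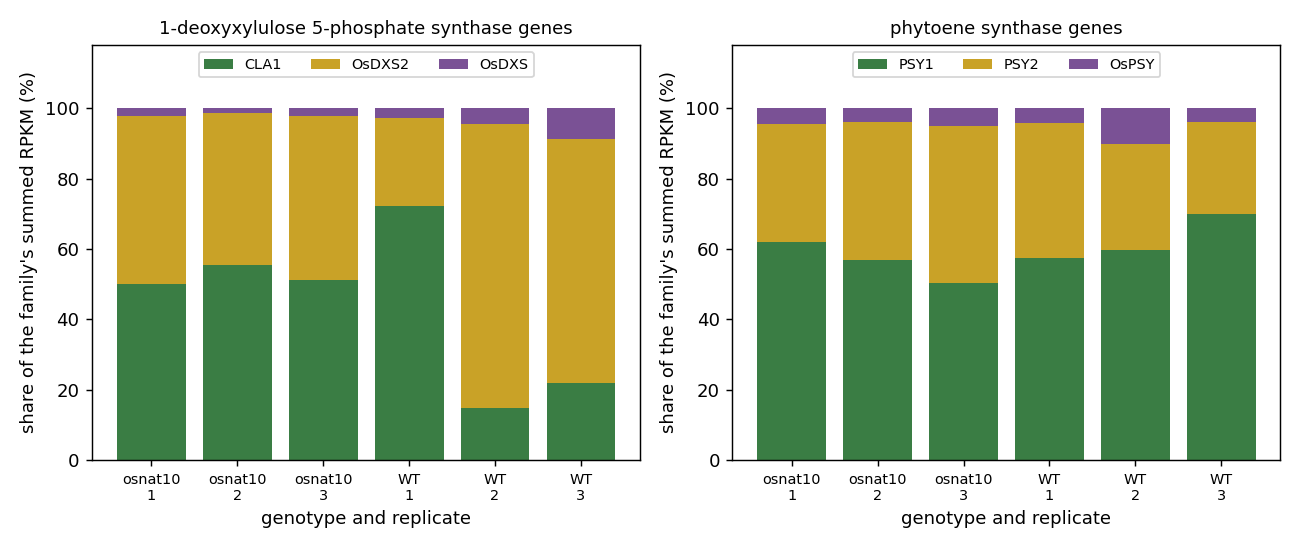
Share of each gene in the summed RPKM of the 1-deoxyxylulose 5-phosphate synthase genes (left) and of the phytoene synthase genes (right), as stacked bars for each library. CLA1 makes up 49.9% to 55.5% of the left bars in osnat10 and 14.8% to 72.2% in WT, while PSY1 makes up 50.3% to 69.8% of every right bar.

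The next 4 genes of the precursor pathway, OsDXR, OsCMS, OsIspE and OsIspF, stood at 16.1 to 65.7 RPKM and overlapped between genotypes. OsDXR, the reductoisomerase that follows DXS, stood at 48.9, 49.0 and 50.3 RPKM in osnat10 and at 65.7, 31.1 and 45.9 RPKM in WT. The osnat10 values lay within 1.03-fold of each other and again between WT replicate 1 and the others. Its log2 fold change of 0.12 had a 95% interval of -0.48 to 0.72. OsCMS, which couples the next intermediate to a cytidine group, averaged 39.5 ± 2.52 RPKM in osnat10 and 33.3 ± 7.79 RPKM in WT. The kinase gene OsIspE averaged 32.3 ± 3.93 and the cyclodiphosphate synthase gene OsIspF 23.3 ± 3.18 RPKM in osnat10, against 39.4 ± 6.62 RPKM for OsIspE and 22.4 ± 5.90 RPKM for OsIspF in WT (SD, n = 3 each). The limma adjusted p of these 4 genes ran from 0.44 for OsIspE to 0.88 for OsIspF.

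The last enzymes of the precursor pathway are a synthase (HDS) and a reductase (HDR), which releases the 5-carbon units. OsHDR was the more abundant, at 101.6, 109 and 113.5 RPKM in osnat10 and 168.7, 73.7 and 110.2 RPKM in WT. OsHDS stood at 19.3, 20.2 and 19.8 RPKM in osnat10 and 27.5, 15.1 and 24.6 RPKM in WT. The ratio of OsHDS to OsHDR was 0.190, 0.185 and 0.174 in osnat10 and 0.163, 0.204 and 0.223 in WT, which overlapped (exact two-sided permutation test, p = 0.50, n = 3 each). Os03g0732000, annotated as similar to the same reductase and numbered next to OsHDR, stood at only 0.546, 1.20 and 1.02 RPKM in osnat10 and 1.95, 0.652 and 0.138 RPKM in WT. With 74 reads in osnat10 and 72 reads in WT, and with a close relative at far higher level, its reads may not be assigned with certainty.

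Phytoene synthase is the entry step and the best-known control point of carotenoid synthesis. PSY1 stood at 36.7, 34.5 and 27.6 RPKM in osnat10, against 49.3, 17.1 and 23.0 RPKM in WT. PSY2 stood at 19.8, 23.8 and 24.5 RPKM in osnat10, against 32.8, 8.54 and 8.62 RPKM in WT. Both genes were highest in WT replicate 1, lowest in WT replicates 2 and 3, and in between in all 3 osnat10 libraries. Their log2 fold changes were 0.28 for PSY1 (95% interval -0.56 to 1.11, limma adjusted p = 0.71) and 0.72 for PSY2 (-0.38 to 1.83, limma adjusted p = 0.44). The authors' deposited table gave -0.02 for PSY1 and 0.26 for PSY2, with adjusted p of 0.99 and 0.86. Without WT replicate 1, PSY2 was 1.35 higher in osnat10 on the log2 scale with a limma adjusted p of 0.0057, and over the 14 alternatives the adjusted p of PSY2 ran up to 0.74.

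The third phytoene synthase gene, OsPSY, was low, at 2.45 to 2.80 RPKM in osnat10 and 1.34 to 3.57 RPKM in WT, and its log2 fold change was 0.08. The 3 genes summed to 58.3 ± 3.01 RPKM in osnat10 and 49.1 ± 31.8 RPKM in WT (SD, n = 3 each). PSY1 held the largest share of that sum in all 6 libraries, with 50.3% to 62.1% in osnat10 and 57.5% to 69.8% in WT. The ratio of PSY1 to PSY2 was 1.85, 1.45 and 1.13 in osnat10 and 1.50, 2.00 and 2.67 in WT, which overlapped (exact two-sided permutation test, p = 0.20, n = 3 each). Within WT the share of the leading phytoene synthase gene thus moved over a narrower span than that of CLA1 among the DXS genes, which ran from 14.8% to 72.2%. Os06g0104100, which carries a squalene and phytoene synthase domain, was steady at 5.39 to 6.10 RPKM in osnat10 and 4.83 to 5.73 RPKM in WT.

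Desaturation and isomerisation turn phytoene into lycopene. PDS1, the phytoene desaturase gene, stood at 45.2, 58.2 and 52.9 RPKM in osnat10 and 70.6, 46.9 and 72.6 RPKM in WT (log2 fold change -0.26, 95% interval -0.75 to 0.23). Os07g0204900, the zeta-carotene desaturase gene, stood at 44.9, 51.3 and 50.4 RPKM in osnat10 and 62.5, 36.3 and 55.7 RPKM in WT (log2 fold change -0.04, 95% interval -0.55 to 0.47). Both desaturases were thus among the abundant members, and WT replicate 2 had the lowest or next to lowest value of each. IM1, annotated as similar to the plastid terminal oxidase that takes up electrons from desaturation, averaged 4.24 ± 0.345 RPKM in osnat10 and 5.57 ± 1.88 RPKM in WT.

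Carotenoid isomerase sets the double bonds of lycopene straight before the rings are closed. Os03g0841900, annotated as similar to carotenoid isomerase 1, stood at 26.5, 29.5 and 23.1 RPKM in osnat10, against 55.5, 43.1 and 36.6 RPKM in WT. Every osnat10 library lay below every WT library, and the WT mean was 1.71 times that of osnat10. The log2 fold change of Os03g0841900 was -0.75 (SE 0.20, 95% interval -1.20 to -0.29, limma adjusted p = 0.12), and in the authors' deposited table it was -0.90 with an adjusted p of 0.029. Over 14 alternative settings it stayed between -0.89 and -0.59, with limma adjusted p of 0.054 to 0.42. OsCRTISO, the isomerase gene with a described part in carotenoid synthesis, stood at 20.6, 20.4 and 17.2 RPKM in osnat10 and 21.5, 22.4 and 21.1 RPKM in WT. Its libraries also did not overlap, but by a narrow margin of 20.6 against 21.1 RPKM, and its log2 fold change of -0.16 (95% interval -0.51 to 0.20) had a limma adjusted p of 0.61. Os02g0190900, described as a phytoene dehydrogenase-like protein, averaged 20.9 ± 2.52 RPKM in osnat10 and 26.2 ± 3.48 RPKM in WT (SD, n = 3 each, limma adjusted p = 0.35).

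**Figure D3:**
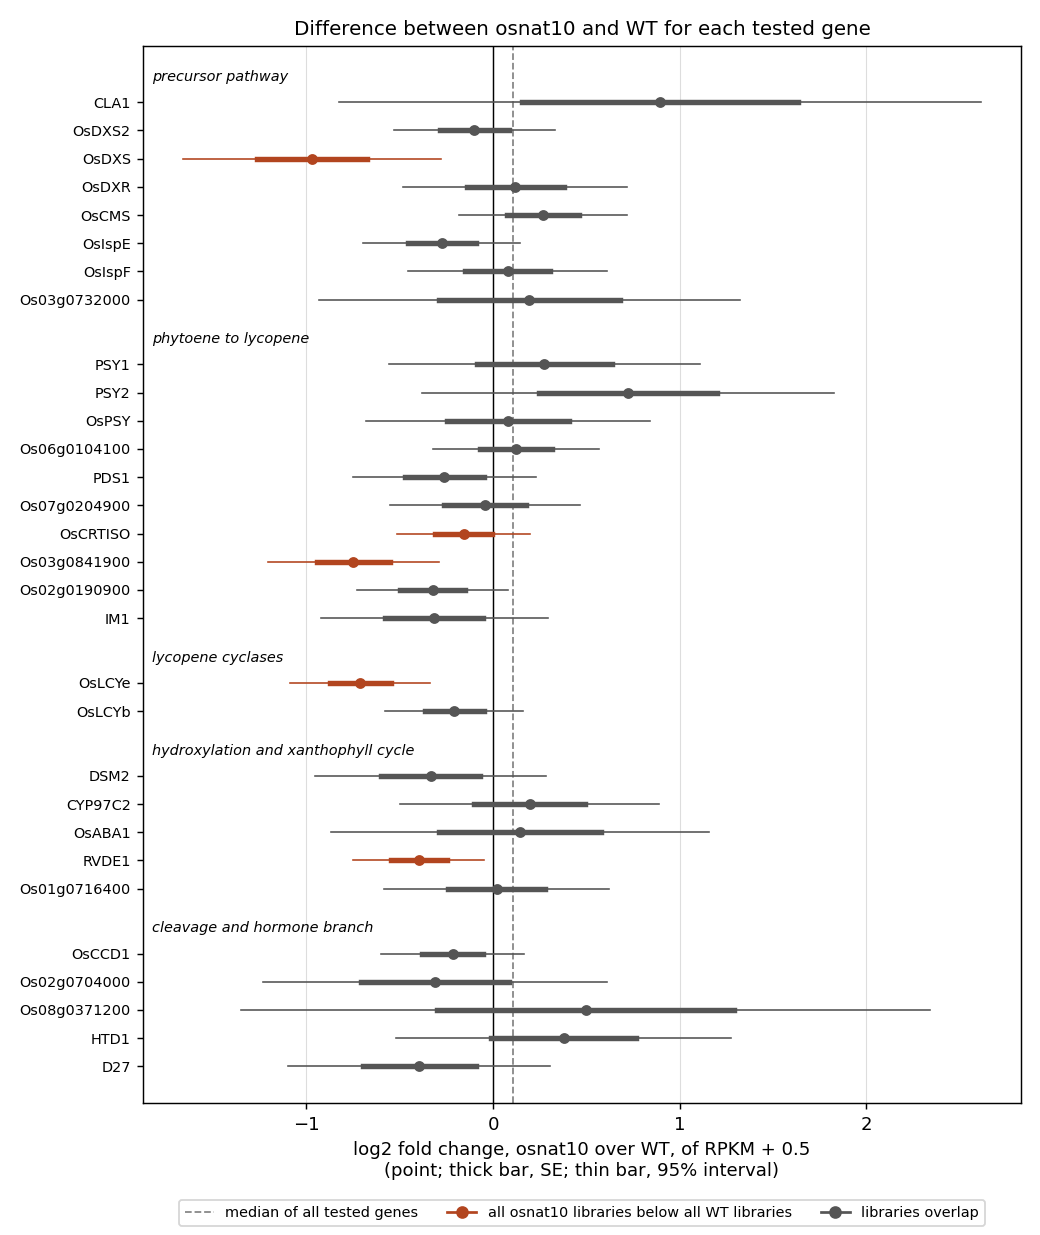
Log2 fold change of osnat10 over WT for each tested gene, from limma on log2(RPKM + 0.5), with the SE as a thick bar and the 95% interval as a thin bar. The 5 genes whose osnat10 libraries all lie below the WT libraries are OsDXS, OsCRTISO, Os03g0841900, OsLCYe and RVDE1, and the widest intervals belong to CLA1 and Os08g0371200.

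At the lycopene cyclases the route divides. OsLCYe, the epsilon-cyclase that opens the branch to lutein, stood at 25.2, 29.1 and 26.6 RPKM in osnat10, against 47.3, 38.0 and 48.5 RPKM in WT. The groups did not overlap, WT replicate 1 was not apart from the other WT libraries for this gene, and the WT mean was 1.66 times the osnat10 mean. Its log2 fold change was -0.71 (SE 0.16, 95% interval -1.09 to -0.34, limma adjusted p = 0.099), and -0.84 with an adjusted p of 0.0076 in the authors' deposited table. Over the 14 alternative settings the log2 fold change ran from -0.82 to -0.65, and the limma adjusted p from 0.041 to 0.39, passing 0.05 only without WT replicate 1.

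OsLCYb, the beta-cyclase, stood at 21.8, 25.7 and 24.0 RPKM in osnat10 and 31.4, 26.1 and 25.6 RPKM in WT. These values overlapped, and the log2 fold change of -0.21 had a 95% interval of -0.58 to 0.16 (limma adjusted p = 0.51). Within each library, OsLCYe over OsLCYb was 1.16, 1.13 and 1.11 in osnat10, against 1.51, 1.46 and 1.90 in WT. A ratio within a library does not move with the scaling of that library, and here the genotypes did not overlap. The mean log2 ratio was 0.51 lower in osnat10, or -0.51 as osnat10 minus WT (exact two-sided permutation test, p = 0.10, n = 3 each). That p is the smallest this design can give, and it became 0.40 when adjusted over the 4 ratios examined. The low level of OsLCYe was known when the ratio was chosen, so the ratio is no independent evidence of it.

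**Figure D4:**
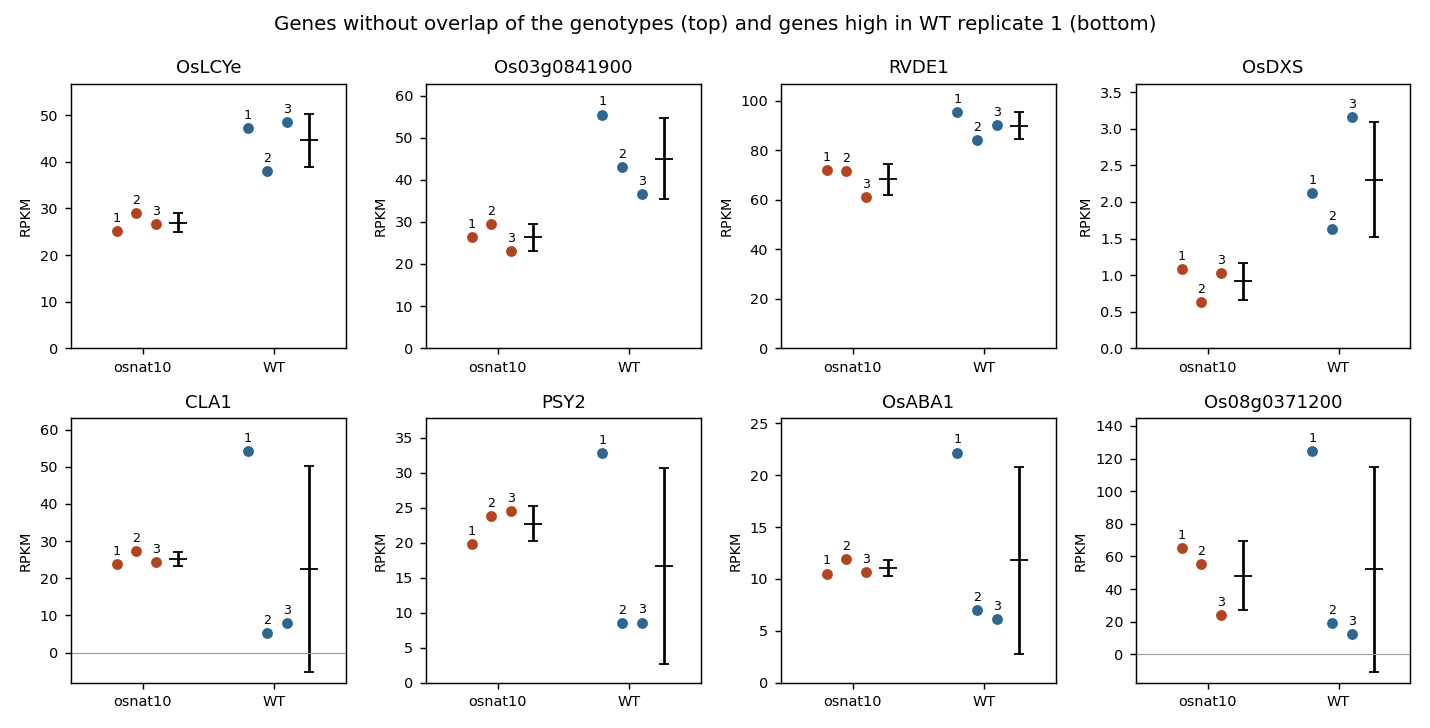
RPKM of 8 genes, with 1 point per library labelled by replicate number and the mean ± SD beside each group (n = 3). In the top row all osnat10 values lie below the WT values, as with OsLCYe at 25.2 to 29.1 against 38.0 to 48.5 RPKM, and in the bottom row WT replicate 1 lies above and WT replicates 2 and 3 lie below the osnat10 libraries.

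Hydroxylases then add the oxygen that makes a carotene into a xanthophyll. CYP97C2, the cytochrome P450 that hydroxylates the epsilon ring, stood at 43.4, 51.8 and 41.4 RPKM in osnat10 and 45.2, 24.2 and 56.1 RPKM in WT. It overlapped between genotypes, with a log2 fold change of 0.20 (95% interval -0.50 to 0.89). DSM2, a beta-carotene hydroxylase gene described in drought and oxidative stress resistance, averaged 4.25 ± 0.140 RPKM in osnat10 and 5.67 ± 1.76 RPKM in WT (SD, n = 3 each, limma adjusted p = 0.53).

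The xanthophyll cycle interconverts zeaxanthin, which favours heat dissipation, and violaxanthin. RVDE1, the violaxanthin de-epoxidase gene that acts toward zeaxanthin in strong light, stood at 72.0, 71.7 and 61.0 RPKM in osnat10, against 95.3, 84.2 and 90.3 RPKM in WT. All osnat10 libraries were lower than all WT libraries, with a log2 fold change of -0.40 (SE 0.15, 95% interval -0.75 to -0.05, limma adjusted p = 0.21). The authors' deposited table gave -0.51 with an adjusted p of 0.13. OsABA1, the zeaxanthin epoxidase gene of the reverse step and of abscisic acid synthesis, stood at 10.5, 12.0 and 10.7 RPKM in osnat10 and 22.2, 7.01 and 6.16 RPKM in WT. This gene followed the pattern of CLA1 and PSY2, with WT replicate 1 high, WT replicates 2 and 3 low and osnat10 between, and its log2 fold change was 0.15 (95% interval -0.87 to 1.16, limma adjusted p = 0.89). Without WT replicate 1 it was 0.71 (limma adjusted p = 0.041, with 0.041 to 0.97 over the 14 alternatives), and without WT replicate 3 it was -0.18. For OsABA1 the authors' deposited table gave -0.27 with an adjusted p of 0.84.

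The ratio of OsABA1 to RVDE1 was 0.146, 0.167 and 0.175 in osnat10 and 0.233, 0.0833 and 0.0682 in WT, so the genotypes overlapped (exact two-sided permutation test, p = 0.40, n = 3 each). Os01g0716400, described as a violaxanthin de-epoxidase family protein, stood at 3.72 to 4.02 RPKM in osnat10 and 5.49, 3.23 and 3.15 RPKM in WT replicates 1, 2 and 3. It too had its osnat10 values between those of WT replicate 1 and the other WT libraries.

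Cleavage dioxygenases cut carotenoids into hormone precursors and scents. OsCCD1, annotated as a carotenoid cleavage dioxygenase, stood at 49.2, 56.0 and 55.5 RPKM in osnat10 and 63.8, 53.1 and 71.0 RPKM in WT (log2 fold change -0.22, 95% interval -0.60 to 0.17). Os08g0371200, with a carotenoid oxygenase domain and no further annotation, was also abundant but varied far more. It stood at 64.9, 55.4 and 24.3 RPKM in osnat10 and 124.7, 19.1 and 12.6 RPKM in WT. Its WT libraries spanned 9.88-fold and its osnat10 libraries 2.67-fold, and the log2 fold change of 0.50 had a 95% interval from -1.35 to 2.34. Without WT replicate 3 the sign of Os08g0371200 was negative, at -0.14. In the authors' deposited table it was also negative, at -0.34 (SE 1.11), without a p-value.

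Genes of the abscisic acid and strigolactone entry steps were low. Os02g0704000, a carotenoid oxygenase family gene, stood at 1.22, 1.28 and 1.97 RPKM in osnat10 and 2.85, 2.73 and 0.840 RPKM in WT. For strigolactones, D27, the beta-carotene isomerase gene, stood at 0.770, 0.231 and 0.388 RPKM in osnat10 and 0.912, 0.506 and 0.821 RPKM in WT. HTD1, the dioxygenase gene that acts on its product, stood at 2.07, 1.48 and 0.939 RPKM in osnat10 and 1.99, 0.676 and 0.643 RPKM in WT. These 3 genes overlapped between genotypes and had limma adjusted p of 0.51 to 0.71.

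Among the 6 members below the minimum, OsNCED2, annotated as similar to zeaxanthin cleavage oxygenase, had the clearest difference in reads. There were 16, 34 and 26 reads in osnat10 (0.464, 0.948 and 0.701 RPKM), against 0, 4 and 7 reads in WT (0, 0.108 and 0.179 RPKM). No WT library reached the lowest osnat10 library. The authors' deposited table gave a log2 fold change of 2.80 (SE 0.87) with an adjusted p of 0.028, while limma without the filter gave 1.01 on the log2(RPKM + 0.5) scale with an adjusted p of 0.12. Os03g0645900, of the same annotated family as Os02g0704000, had 10 reads in osnat10 and 36 in WT, of which 26 were in WT replicate 2, and its highest osnat10 library (0.106 RPKM) lay below its lowest WT library (0.121 RPKM). D10, the dioxygenase gene after HTD1 in strigolactone synthesis, had 18 reads in osnat10 and 19 in WT. Os09g0321200, annotated as similar to a carotenoid cleavage dioxygenase, had 45 reads in osnat10 and 54 in WT, with 50 of the WT reads in WT replicate 1. Os06g0162550 had 11 reads in osnat10 and 2 in WT, and Os08g0371608 was listed at 0 RPKM in every library.

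The members' spread within WT was wide, as it was for genes in general. In 7 of the 30 tested members the highest WT library exceeded the lowest more than 3-fold (CLA1, Os03g0732000, PSY2, OsABA1, Os02g0704000, Os08g0371200 and HTD1), where 18.1% of all tested genes did. Among osnat10 libraries 1 member, D27, reached that range, against 5.99% of all tested genes. WT replicate 1 was the highest WT library for 19 of the 30 members, while it was so for 23.9% of all tested genes. In 7 members all 3 osnat10 libraries lay above WT replicates 2 and 3 and below WT replicate 1, against 3.7% of all tested genes. These are CLA1, OsDXR, PSY1, PSY2, OsABA1, Os01g0716400 and Os08g0371200, and this pattern was chosen after the values were seen. The summed light-harvesting transcripts had the same order of libraries, and what part they share with these genes was not tested.

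Without WT replicate 1, limma called 4 members, with CLA1, PSY2 and OsABA1 higher and OsLCYe lower in osnat10, where 6.28% of all genes were called higher and 4.84% lower. That fit compares osnat10 with WT replicates 2 and 3 alone. Without WT replicate 2 it called 0 members (0.041% of all genes higher, 0.0% lower), and without WT replicate 3 also 0 members (3.63% higher, 0.406% lower). At an unadjusted p under 0.05 the fits without WT replicate 2 and without WT replicate 3 each had 5 of the 30 members. The shares of all genes were 15.5% without WT replicate 2 and 22.3% without WT replicate 3. Without WT replicate 1 there were 11 of the 30 members, beside 7025 of all 24380 genes. For CLA1, PSY2 and OsABA1, genotype and the difference among WT libraries therefore cannot be told apart. OsLCYe was 1 of the 5 members lower in every osnat10 library than in each of the 3 WT libraries, beside 7.79% of all tested genes. It was not called with all libraries in the fit (limma adjusted p = 0.099).

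Routes that share precursors or products with carotenoids were read from 4 lists of other genes, matched by words in their symbols or descriptions. These lists are not limited to enzymes of the routes, and none had a called gene in limma with all libraries in the fit. From each of the 4 lists the 3 tested genes of smallest p with all libraries were picked, 12 in all. Of these 12, 6 were called without WT replicate 1 (OsFPPS2, IPI, Os08g0512700 and NSP2 higher, Os09g0514400 and Os06g0103300 lower in osnat10, limma adjusted p of 0.018 to 0.035). OsSNDP9 was called higher without WT replicate 3 (limma adjusted p = 0.041). Over all genes 6.28% were called higher and 4.84% lower without WT replicate 1, and 3.63% and 0.406% without WT replicate 3. The 12 were picked on the same libraries, so such calls were favoured and are no independent evidence. In the prenyl diphosphate and chain list 16 of 20 genes were tested, 9 with positive and 7 with negative fold changes, and the median log2 fold change was 0.14 beside 0.11 for all genes. Under median of ratios scaling 8 were positive and 8 negative. Without that scaling, 2 of the 16 lay higher and 1 lower at an unadjusted p under 0.05, beside 13.6% and 5.69% of all tested genes. OsFPPS2, a farnesyl diphosphate synthase gene, stood at 65.6, 87.7 and 80.5 RPKM in osnat10, against 53.3, 49.0 and 43.2 RPKM in WT (log2 fold change 0.67, limma adjusted p = 0.11). IPI, the isomerase gene that balances the 5-carbon units, averaged 38.8 ± 3.49 RPKM in osnat10 and 27.9 ± 7.87 RPKM in WT (SD, n = 3 each, limma adjusted p = 0.26). Os09g0514400, annotated as the alpha subunit of a protein prenyltransferase, averaged 26.4 ± 2.56 RPKM in osnat10 and 43.2 ± 12.6 RPKM in WT (SD, n = 3 each, limma adjusted p = 0.18).

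The mevalonate route makes the same 5-carbon units outside the plastid. Of the 15 tested genes in its list, 13 had positive fold changes, with a median log2 fold change of 0.24. Under median of ratios scaling and under quantile normalisation 11 of the 15 were positive, with medians of 0.13 and 0.14. Without WT replicate 1, 10 of the 15 were positive, with a median of 0.27. With all libraries and without those scalings, 4 lay higher and 0 lower at an unadjusted p under 0.05. Among all tested genes 13.6% lay higher and 5.69% lower. In 4 genes every osnat10 library lay above every WT library, as in 17.2% of all tested genes, of which 14606 of 24380 had a positive fold change. Os08g0512700, a gene for HMG-CoA reductase, the controlled step of that route, stood at 12.4, 11.2 and 11.3 RPKM in osnat10, against 7.65, 6.46 and 4.88 RPKM in WT (log2 fold change 0.85, limma adjusted p = 0.11). Os02g0109100, annotated as diphosphomevalonate decarboxylase, stood at 31.1, 39.2 and 38.3 RPKM in osnat10, against 20.3, 23.4 and 24.2 RPKM in WT (limma adjusted p = 0.11). Os10g0329300, the mevalonate kinase gene, averaged 14.7 ± 1.10 RPKM in osnat10 and 10.6 ± 1.10 RPKM in WT (SD, n = 3 each, limma adjusted p = 0.20). The 3 genes did not overlap between genotypes, and none of the 3 passed the adjusted threshold with all libraries in the fit.

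The tocopherol and plastoquinone list had 11 tested genes, 7 of them positive, with a median log2 fold change of 0.12. OsSNDP9, annotated with alpha-tocopherol transport, averaged 20.7 ± 2.81 RPKM in osnat10 and 12.9 ± 4.95 RPKM in WT (limma adjusted p = 0.21, n = 3 each). Os05g0274950, similar to a homogentisate phytyltransferase, was listed at 0.917, 0 and 0 RPKM in osnat10 and 2.01, 1.36 and 0.486 RPKM in WT, and the homogentisate dioxygenase gene Os06g0103300 averaged 11.4 ± 0.413 RPKM in osnat10 and 16.8 ± 7.29 RPKM in WT. The last list, of abscisic acid and strigolactone genes beyond cleavage, also takes in genes that are not enzymes. Of its 11 genes 10 were tested, 6 positive, with a median of 0.09. That median was -0.01 under median of ratios scaling. NSP2, a transcription factor gene for strigolactone synthesis, stood at 2.78, 1.64 and 2.04 RPKM in osnat10, against 0.881, 0.364 and 0.0289 RPKM in WT (log2 fold change 1.61, limma adjusted p = 0.11, with 0.019 to 0.39 over the 14 alternatives). OsABA8OX1, a hydroxylase gene of abscisic acid breakdown, had an average of 2.97 ± 1.00 RPKM in osnat10 and 5.10 ± 0.259 RPKM in WT (limma adjusted p = 0.21, n = 3 each), and D14, the strigolactone receptor gene, 75.7 ± 3.13 RPKM in osnat10 and 94.8 ± 19.2 RPKM in WT.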

How the data were processed

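The RNA-seq libraries (3 osnat10, 3 WT) were analysed. The 8 libraries of ac4C pull-down and input are left aside. RPKM for 38978 genes were deposited by the authors. A second table holds the authors' comparison of 32190 genes. Its columns are, per the file headers, a mean normalised signal, a log2 fold change and its standard error, a Wald score, a p-value and an adjusted p-value. This table lacks an adjusted p-value for 5086 of its genes. Its fold change was positive where RPKM were higher in osnat10, in all 1681 genes under an adjusted p of 0.05. Its Wald score had the opposite sign throughout and was not used. Tools named in the submitters' processing notes are STAR (version 2.5.3a), deepTools and DESeq2, with IRGSP-1.0 as build, without saying what each was used for. The counting tool, annotation and use of strand are unstated, so reads of overlapping genes and of near-identical copies are uncertain. RPKM depend on the library total, of which the top 10 genes took 2.72% to 3.19% in osnat10 and 3.23% to 6.61% in WT, most in WT replicate 1.

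Reads per gene were recovered from the steps of the RPKM values and the authors' mean signal, with 99.98% of values above 0 whole within 0.05 reads. Tests were run in limma 3.58.1 (R 4.3.3) on log2(RPKM + 0.5) with an intensity trend and no covariate, over 24380 genes with at least 0.5 RPKM in 3 or more libraries, with Benjamini-Hochberg adjustment. In a check on data of known answer, made with equal spread in both genotypes, most genes shifted 2-fold were not called. In the data the SD of log2 values within a genotype was 0.572 in WT and 0.3 in osnat10, while the fit gives both genotypes a shared variance. The added 0.5 shrinks the fold changes of low genes. Ratios of genes within a library were compared by exact two-sided permutation (scipy 1.17.1). The labels call the libraries biological replicates without saying whether plants, pools or batches differed, so p-values measure the spread between these libraries. Replicate numbers did not pair them, with correlations of same-numbered deviations of -0.059, -0.026 and 0.126. Alternatives were another pseudocount, filter or scaling, no trend, a replicate block and each library left out. The members, the lists and the ratios were chosen with earlier results of these data known. All members are named. Those with an unadjusted p under 0.05 or a WT range over 3-fold have values in every library, as do others picked after their values were seen, and each further list is represented by the 3 tested genes of smallest p.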

Additional observations from a re-analysis of the deposited data

How the results depend on the processing

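The number of genes called over all genes, 37 with all libraries, was 108 under median of ratios scaling and 20 with the replicate number as a block, and ran from 8 to 2713 when 1 replicate was left out. It was 2713 without WT replicate 1, 985 without WT replicate 3, 10 without WT replicate 2, and 8, 11 and 10 without osnat10 replicates 1, 2 and 3. Members called stayed at 0 in every setting except without WT replicate 1, where 4 were called, a range of 0 to 4. The replicate block called 0 members, and their median log2 fold change was -0.07 with it as without it. Leaving out 1 replicate gave medians of -0.15 to 0.02.

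Of the 30 tested members, 18 kept the sign of their log2 fold change in all alternatives run and 12 changed it in at least 1, and the cause was not tested. Under median of ratios scaling it was -0.077 for Os01g0716400, -0.026 for OsIspF and -0.014 for OsPSY. Under quantile normalisation it was -0.155 for Os01g0716400, -0.017 for Os03g0732000, -0.025 for Os06g0104100 and -0.111 for OsPSY. When 1 replicate was left out, it ran from -0.151 to 0.382 for OsDXR, -0.262 to 0.028 for OsDXS2, -0.138 to 0.246 for OsIspF, -0.270 to 0.700 for Os03g0732000, -0.044 to 0.706 for PSY1 and -0.260 to 0.312 for OsPSY. Likewise it ran from -0.272 to 0.116 for Os07g0204900, -0.151 to 0.448 for CYP97C2, -0.178 to 0.706 for OsABA1, -0.104 to 0.254 for Os01g0716400 and -0.143 to 1.48 for Os08g0371200. The log2 ratio of OsHDS over OsHDR as osnat10 minus WT, -0.09 with all libraries, ran from -0.220 to 0.0041, and the other 3 ratios kept their sign in all alternatives run. The 95% intervals of the members' log2 fold changes had half-widths of 0.35 to 1.85 with a median of 0.60. These intervals are not adjusted for the 24380 genes tested. The 4 members with an unadjusted p under 0.05 lay beyond their own half-widths and were still not called with all libraries. The half-widths therefore understate the difference needed for a call with 3 libraries a genotype.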
